A study of Mus musculus with 12 samples.

Results

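Type 1 conventional dendritic cells (cDC1) made up 910 of the 128912 cells kept from 140639 barcodes of tumor-infiltrating CD45+ cells, a share of 0.706% (95% exact binomial interval 0.661 to 0.753%). They were chosen by the unique molecular identifiers (UMIs, each standing for 1 captured transcript) of 8 genes. Barcodes with a gene number above 200 and below 5000 were kept if mitochondrial transcripts did not exceed 10% of their UMIs. A kept barcode was taken as cDC1 when it held 2 or more UMIs of Xcr1 and Clec9a together, no UMI of Adgre1 (macrophages), Cd3d, Cd3e or Cd3g (T cells) or Siglech (plasmacytoid dendritic cells), and at most 1 UMI of Fscn1 (mature dendritic cells). The levels of these 8 genes describe the choice and support nothing. Intervals are exact 95% intervals and cover counting error only.

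The cells came from 12 samples of C57BL/6 mice, female by the study's methods, that carried subcutaneous tumors of MC38, a mouse adenocarcinoma line. The 4 groups of 3 samples received vehicle for 7 days, vehicle for 16 days, the EZH2 inhibitor PF-06821497 for 7 days or the inhibitor for 16 days. The inhibitor was given daily under the skin at 100 mg/kg from day 10 or day 1, and all tumors were taken on day 17. All groups shared the tumor line, the host and an enrichment on CD45 microbeads. The matrix numbers its libraries from 1 to 12, and no label ties a number to a sample. The libraries were therefore handled as 1 pooled sample without groups, inhibitor and vehicle were not compared, and no test between samples was run.

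cDC1 take up material from dying cells and present it on MHC class I to CD8 T cells, which is called cross-presentation. They arise under the transcription factors IRF8, BATF3 and ID2 and depend on FLT3 ligand. XCR1 is the receptor for the chemokine XCL1, which natural killer cells and activated CD8 T cells release, and CLEC9A binds actin filaments exposed in dead cells. In tumors cDC1 are known as a source of IL-12 and of CXCR3 ligands. On activation they take on CCR7, the receptor that guides dendritic cells to lymph nodes.

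The libraries contributed unequally. From number 1 to 12 they held 39, 79, 29, 27, 177, 394, 41, 22, 38, 20, 23 and 21 cDC1. The share of kept cells was lowest in library 4 at 0.239% (0.158 to 0.348%) and highest in library 6 at 1.05% (0.952 to 1.16%), so these 2 libraries differed by more than counting error. Library 6 supplied 43.3% of all cDC1 and was the largest, with 37413 of the 128912 kept cells against a median of 7626.5 per library. Its cDC1 were the shallowest, with a median of 2975.5 UMIs per cell, and the deepest, in library 8, had a median of 23769. Library 4 stood apart by its heat shock genes, whose summed level in cDC1 was 9109 CPM (UMIs of the gene scaled to a total of 1e+06) against a median of 4011 over the 12 libraries. Without library 6 the pooled share of cDC1 was 0.564%. Over all 910 cells the median depth was 4907 UMIs. Of 138353 barcode sequences 2261 occurred in 2 or more libraries, no sequence was shared between cDC1, and 23 cDC1 shared theirs with some other barcode.

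**Figure D1:**
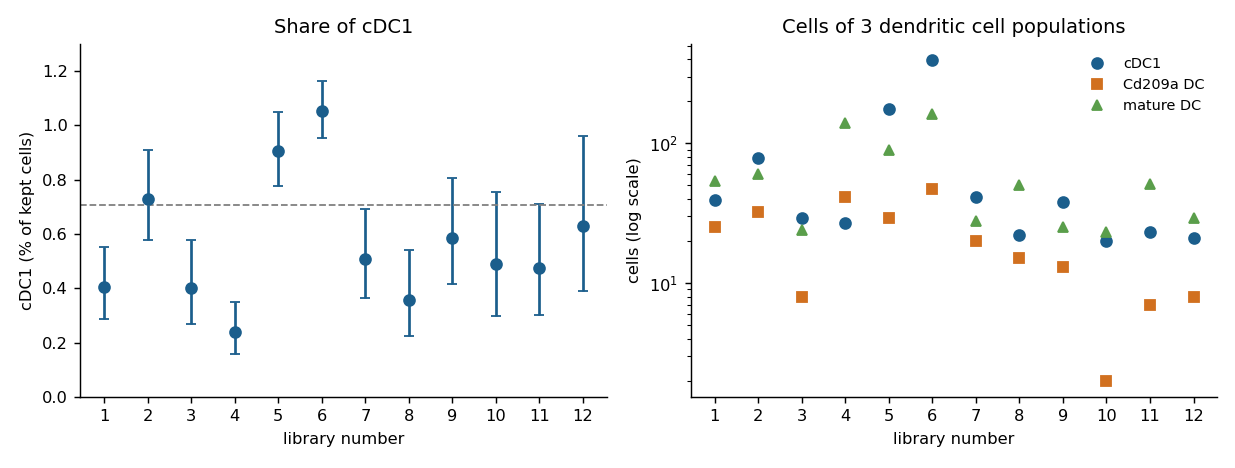
Left, share of cDC1 among kept cells (%) in each of the 12 libraries, with exact 95% binomial intervals as bars and the pooled 0.706% as the dashed line. Right, number of cDC1, Cd209a-positive DC and mature DC per library on a log axis. Library 4 held 27 cDC1 and 139 mature DC, and library 6 held 394 and 163.

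The balance among dendritic cells differed between libraries too. Comparison cells were picked by the same kind of rule: 247 Cd209a-positive dendritic cells (Cd209a DC), a population that overlaps with type 2 conventional dendritic cells, 736 mature dendritic cells with Fscn1 and Ccr7, 165 plasmacytoid dendritic cells, 43276 macrophages and 288 B cells. There were 0.194 cDC1 per mature DC in library 4 and 2.42 in library 6, with a median of 1.04. Per Cd209a DC the number ran from 0.659 in library 4 to 10 in library 10, which held only 2 Cd209a DC.

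Levels differed between cells just inside and just outside the limit of the choice. The 313 members with exactly 2 UMIs of Xcr1 and Clec9a had 67.5 CPM of Flt3, 768 of Irf8 and 220.2 of Itgae, and the 597 members with 3 or more had 117, 1219.8 and 422. The 924 cells just outside, with 1 such UMI, had 35.2, 422 and 92.5. C1qa, a complement gene of macrophages, had the opposite order, at 385 CPM with 3 or more UMIs, 1586 with 2 and 2785 with 1. Library 6 supplied 192 of the 313, 202 of the 597 and 485 of the 924 cells. Without it, a setting added after seeing the data, the order was the same, with 1276, 754 and 390.2 CPM of Irf8 and 255, 1892 and 2908 of C1qa. Of 1584 kept cells with 2 or more UMIs of both genes together, 674 failed another limit, 415 of them by an Adgre1 UMI and 297 by a Cd3 UMI. As background, 0.417% of 46545 cells with 2 or more Adgre1 UMIs, at a median depth of 8639 UMIs, also held 2 or more UMIs of Xcr1 and Clec9a. So did 2 of 292 cells (0.685%) with 2 or more UMIs of the B cell gene Cd79a and no Adgre1 or Cd3 UMI, at a median of 1370 UMIs. That share rests on 2 cells. The 0.706% of cDC1 is over all kept cells, including those that these limits shut out, so the shares have unlike denominators.

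Markers that the choice did not use were checked against the name. Irf8, the transcription factor that defines the lineage, was found in 91.4% of cDC1 and 32.6% of B cells. Naaa, a lysosomal amidase, was found in 92.4% and 5.21%, Itgae, the alpha chain of CD103, in 70.0% and none of 288, which at 3 counts allows a share of up to 1.04% of cells with a UMI (exact upper limit 1.27%), and Tlr3, a sensor of double-stranded RNA, in 60.2% and 0.347%. Batf3 was found in 48.0% and 1.39%. Not all of these set cDC1 apart from other dendritic cells. At 1000 UMIs per cell an Irf8 UMI was found in 59.0% of cDC1, 59.8% of mature DC and 79.9% of plasmacytoid dendritic cells, and a Batf3 UMI in 11.3% of cDC1 and 23.0% of mature DC. Naaa was found in 58.9% of cDC1, 25.3% of Cd209a DC and 2.21% of mature DC, and Itgae in 29.1%, 0.83% and 0.968%. The B cells were shallower, with a median of 1367 UMIs. The 15 cDC1 markers outside the choice summed to 5363 CPM in cDC1, from 4495 to 6942 over the libraries, and to 1184 in Cd209a DC. The genes that made the choice are Xcr1 (chr9:123852315-123862029, minus strand, GRCm38), seen in 88.1% of the cells, and Clec9a (chr6:129408862-129424763, plus strand), seen in 74.7%. Among 910 cells, 5 held 2 or more UMIs of B cell genes, 10 of T cell genes, 18 of natural killer cell genes, 18 of neutrophil genes and 0 of keratin genes.

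**Figure D2:**
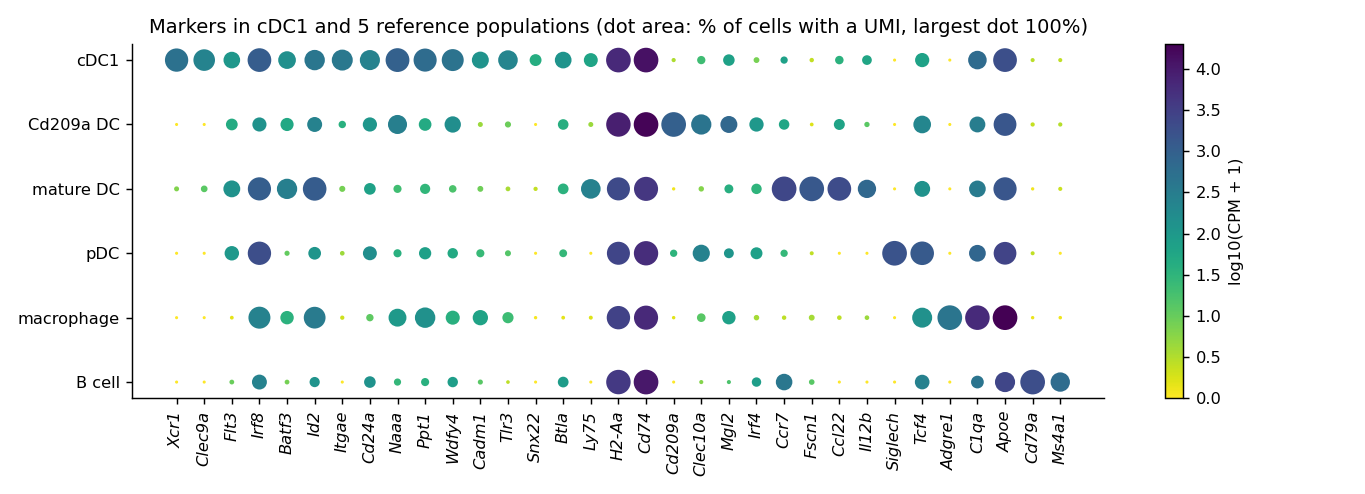
Marker genes in cDC1 and 5 comparison populations, all libraries pooled. Colour gives log10(CPM + 1) and dot area the percentage of cells with a UMI. Itgae stood at 376 CPM in cDC1 and 36.5 in Cd209a DC, and C1qa at 658 CPM in cDC1 and 6275 in macrophages.

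Flt3 (chr5:147330741-147400489, minus strand), the receptor for the growth factor of dendritic cells, was found in 41.8% (38.5 to 45.0%) of cDC1. The share was 22.3% in library 6, the shallowest, and 82.6% in library 11, and 56.6% with library 6 left out. For shares at equal depth, cells were thinned to 1000 UMIs, and those with fewer were left out, 7 of 910 cDC1, 13 mature DC, 6 Cd209a DC, 11 plasmacytoid dendritic cells and 54 of 288 B cells. The share with Flt3 was then 11.3% (9.30 to 13.5%) in cDC1, 10.4% (8.25 to 12.8%) in mature DC and 13.6% (8.64 to 20.1%) in plasmacytoid dendritic cells. It was 4.56% (2.30 to 8.02%) in Cd209a DC and 1.28% (0.265 to 3.70%) in B cells. At equal depth, cDC1, mature DC and plasmacytoid dendritic cells thus overlapped in their intervals.

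Summed UMIs of cDC1 were then compared with those of Cd209a DC in the 6 libraries that held 20 or more of each, numbers 1, 2, 4, 5, 6 and 7. A gene was called higher or lower when the pooled CPM differed at least 2 times and all 6 libraries lay on the same side. Of 7117 genes with 50 or more UMIs, 465 (6.53%) were higher in cDC1 and 348 (4.89%) lower, and the median log2 ratio was 0.03. The limit was on both groups together, and 757 cDC1 stood against 194 Cd209a DC. Genes high in cDC1 thus reached it more easily, and the counts of higher genes below share this lean. With at least 200 UMIs 203 genes were higher and 187 lower. All 15 tested cDC1 markers outside the choice were higher, with a median log2 ratio of 2.55. Among them Snx22, with 0 UMIs in Cd209a DC, passed the limit of 50 UMIs through cDC1 alone. Tlr3, Ly75 and Cadm1, rare in Cd209a DC, passed it largely through cDC1. Of 7 tested Cd209a DC markers 5 were lower, with a median of -2.38. They were Sirpa, Itgam, Clec10a, Mgl2 and Irf4.

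**Figure D3:**
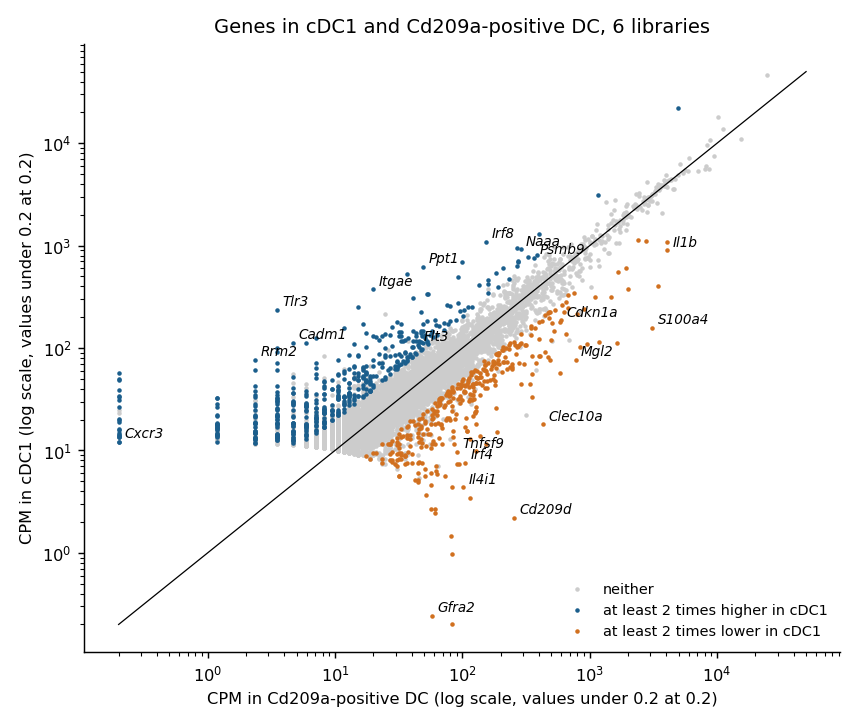
Pooled CPM of 7117 genes in cDC1 (vertical) and Cd209a-positive DC (horizontal) of 6 libraries, on log axes, with values under 0.2 drawn at 0.2 and a line of equal levels. The 465 genes called higher in cDC1 are blue and the 348 called lower are orange.

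Some transcription factors of the lineages were higher in cDC1 and others in Cd209a DC. Irf8 ranged from 858 to 1383 CPM over the 6 libraries in cDC1, with a median of 1149, and from 50.8 to 303 with a median of 142 in Cd209a DC. The ranges did not overlap, and the pooled ratio was 7.15 (6.01 to 8.58). Irf4, which drives type 2 conventional dendritic cells, ranged from 4.75 to 15.1 CPM in cDC1 and from 71.1 to 142 in Cd209a DC, 13.9-fold (9.12 to 21.6) lower. Batf3, the partner of IRF8, was 2.51-fold (1.87 to 3.43) higher, and Id2, which opposes the plasmacytoid fate, 2.62-fold (2.20 to 3.15) higher. Zeb2 was 4.29-fold (3.62 to 5.10) lower, Tcf4, the plasmacytoid factor, 3.12-fold (2.59 to 3.76) lower and Nfil3, which acts early in the cDC1 lineage, 2.03-fold (1.59 to 2.57) lower. Of 15 factors tested, 3 were higher and 4 lower, beside 6.53% higher and 4.89% lower over all genes. Without cells with 2 or more C1q UMIs, 1 was higher and 1 lower. That setting left 2 libraries, a weaker demand, so its counts are not comparable with the main ones. Over all genes 304 were higher and 238 lower in that setting. Mycl, a MYC relative, had 46.3 against 10.6 CPM but was higher in 5 of 6 libraries and was not called.

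Among the 12 genes with the highest ratio, all rare in Cd209a DC, Tlr3 came first. Genes with 0 UMIs in Cd209a DC were set to 3 and could rank below genes with 1 or 2, so the order holds under that floor only. Tlr3 ranged from 182 to 327 CPM in cDC1 and from 0 to 16.7 in Cd209a DC, where it had 3 UMIs, a ratio of 67.2 (22.9 to 326). Itgae, further down, ranged from 313 to 519 CPM in cDC1 and from 0 to 53.9 in Cd209a DC, a ratio of 18.7 (11.6 to 32.2). Ly75, the endocytic receptor DEC-205, had a ratio of 25.7 (7.03 to 213) and Cadm1, an adhesion molecule, of 24.0 (9.30 to 88.3), or 38.3 without library 6. Ffar4, a receptor for long-chain fatty acids, had a ratio of 26.0 (8.84 to 127), Agpat3, a lipid acyltransferase, of 28.4 (9.66 to 138), and the receptor gene Gpr33, on 1 UMI in Cd209a DC, of 27.5 (4.86 to 1096). Replication genes were Rrm2, a subunit of ribonucleotide reductase, at 32.6 (8.95 to 270.5), Dtl at 27.5 (4.86 to 1096) and Timeless at 20.1 (6.81 to 98.0). Mospd1, Zfp367 and Txndc16 completed the 12. Txndc16 had 534 CPM in library 4 and a median of 70.4 over the 12 libraries.

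At the other end Gfra2, a co-receptor for neurturin, had 1 UMI in cDC1 and 49 in Cd209a DC, 237-fold (40.5 to 9535) lower. The lectin gene Cd209d was 117-fold (60.5 to 259) lower, and Cd209e, with 0 and 70 UMIs, at least 113-fold lower. These relatives of Cd209a, the gene that chose the comparison cells, may share reads with it and are uncertain. Clec10a, another lectin, was 23.8-fold (18.5 to 30.9) lower and Il4i1, an amino acid oxidase, 23.1-fold (13.8 to 40.8) lower. S100a4, a calcium-binding protein, ranged from 93.5 to 354 CPM in cDC1 and from 2489 to 4071 in Cd209a DC, 19.8-fold (18.1 to 21.6) lower. Cyp7b1, Timp1, Cd7, Krt80, Mefv and Ddr1 were between 21.1- and 85.7-fold lower.

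Class I genes were called at a share near that over all genes. Of 16 tested genes of the class I and cross-presentation list 2 were higher and 1 lower, beside 6.53% and 4.89% over all genes, with a median log2 ratio of 0.09. Psmb9, an immunoproteasome subunit, had 762 against 367 CPM, a ratio of 2.08 (1.85 to 2.34) that was 1.89 and not called without library 4, and Wdfy4, needed for cross-presentation of cell-bound antigen, 466 against 159 CPM, a ratio of 2.93 (2.46 to 3.52). Cybb, a subunit of the phagosomal oxidase, was 2.12-fold (1.84 to 2.43) lower. The peptide transporter gene Tap1, at a ratio of 1.43 (1.22 to 1.68), was not called. None of 11 class II genes was called, with a median log2 ratio of -0.54. H2-Aa, a class II chain, had 5984 against 8147 CPM and Cd74, the invariant chain, 10944 against 15481 CPM, and both were lower in cDC1 in 6 of 6 libraries.

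Among sensors of microbial molecules, 9 genes were tested. Beside Tlr3, described above, Tlr12 and Tlr11 sense profilin of protozoan parasites. Tlr12 had 137 UMIs in cDC1 and Tlr11 65, with 0 in Cd209a DC, so that, against a floor of 3 UMIs over the group, they were at least 9.46- and 4.49-fold higher. Both passed the limit of 50 UMIs through cDC1 alone, so they are given as a description and no count of higher sensors is read. Without library 6 Tlr11 fell under 50 UMIs and was not tested. Ddx58, the RNA sensor RIG-I, was 5.94-fold (3.99 to 8.88) lower.

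Promoters of these genes were searched for motifs of the factors named above. The 250 bases before each gene start came from RefSeq (GRCm38.p6), and both strands were searched for GAAA and GAAA with any 2 bases between (a pair of interferon regulatory factors), GGAA and GAAA with any 2 bases between (an ETS factor with such a factor) and TGANTCA (BATF with JUN). Of 371 higher genes with an entry 2.16%, 2.43% and 3.77% held these motifs, of 275 lower genes 6.55%, 5.45% and 9.45%, of 5681 tested genes 3.8%, 2.89% and 5.28%, and of all 27025 promoters 3.46%, 2.68% and 7.82%. A match is a description of the letters only. Of 29 named genes 25 had an entry and 3 held a motif. The windows of Gpr33 (chr12:52028064-52028313, minus strand) and Tlr11 (chr14:50357664-50357913, plus strand) are shown 5′ to 3′, as genes with at most 1 UMI in Cd209a DC, with the motif in capitals. The motif begins 217 bases before the start of Gpr33 and 122 before that of Tlr11.
Gpr33: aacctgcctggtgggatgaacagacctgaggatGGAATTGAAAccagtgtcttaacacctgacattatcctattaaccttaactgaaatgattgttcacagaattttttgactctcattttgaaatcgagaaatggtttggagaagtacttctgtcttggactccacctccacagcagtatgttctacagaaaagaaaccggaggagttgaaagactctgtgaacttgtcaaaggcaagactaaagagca
Tlr11: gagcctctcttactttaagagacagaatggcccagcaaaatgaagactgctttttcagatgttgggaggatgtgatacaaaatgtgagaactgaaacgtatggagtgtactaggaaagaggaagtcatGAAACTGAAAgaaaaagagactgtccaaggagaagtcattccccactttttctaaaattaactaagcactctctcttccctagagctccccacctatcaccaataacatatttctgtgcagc

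Of 14 tested cytokine genes none was higher in cDC1 than in Cd209a DC and 3 were lower, beside 6.53% higher and 4.89% lower over all genes, with a median log2 ratio of -0.60. The lower cytokine genes became 5 without library 4 and 6 with a UMI of each of Xcr1 and Clec9a. Each setting compared 5 libraries, a weaker demand than 6, and over all genes 327 and 357 were lower. The genes tested in these settings are not counted here, so no change particular to cytokines is read. Il1b ranged from 616 to 1103 CPM in cDC1 and from 3245 to 5094 in Cd209a DC, 4.48-fold (4.28 to 4.69) lower without overlap. The chemokine gene Ccl17 was 3.51-fold (3.22 to 3.82) and Tnf 2.75-fold (1.74 to 4.28) lower. Cxcl9, a CXCR3 ligand, was found in 35.6% of cDC1 and 2.78% of B cells, and ranged from 101 to 1062 CPM over the 12 libraries. It had 489 against 321 CPM and was not called. Il12b, the p40 subunit of IL-12, had 42.4 against 14.1 CPM and was not called either.

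Among receptor genes, Flt3 ranged from 74.5 to 166 CPM in cDC1 and from 8.33 to 66.0 in Cd209a DC, a ratio of 2.41 (1.73 to 3.45). Cxcr3, the receptor for CXCL9, had 50 UMIs in cDC1 and 0 in Cd209a DC, at least 3.45-fold higher. It passed the limit of 50 UMIs through cDC1 alone and is given as a description, and without library 4 or library 6 it fell under 50 UMIs and was not tested. It was found in 9.89% (8.03 to 12%) of cDC1, 10.9% of plasmacytoid dendritic cells and 0.347% of B cells, and at 1000 UMIs in 1.11% of cDC1 and 3.25% of plasmacytoid dendritic cells. The chemokine receptor genes Ccr1 and Ccr2 were 3.81-fold (3.07 to 4.74) and 3.21-fold (2.79 to 3.69) lower, and Csf2rb2, a receptor subunit gene, 2.04-fold (1.47 to 2.80) lower. Without library 4 Csf2rb2 was 1.74-fold lower and not called. Of 12 checkpoint and costimulatory genes Btla, an inhibitory receptor, was higher, with 116 against 32.9 CPM and a ratio of 3.53 (2.41 to 5.37), and 3 were lower, beside 6.53% higher and 4.89% lower over all genes. Cd80, Vsir and Tnfsf9, the ligand of 4-1BB, were 2.21-fold (1.67 to 2.92), 2.61-fold (1.91 to 3.55) and 9.30-fold (6.27 to 14.0) lower, and Vsir, at 1.93-fold, was not called without library 4. Havcr2, which encodes TIM-3, had a ratio of 1.94 (1.56 to 2.43), above 1 in 6 of 6 libraries, and was not called.

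The same cDC1 were compared with mature DC over all 12 libraries. Of 8855 tested genes 682 (7.7%) were higher and 663 (7.49%) lower, with a median log2 ratio of 0.08. Class II genes were higher in 10 of 11 cases, with a median log2 ratio of 1.64. H2-Ab1 was 6.46-fold (6.28 to 6.65) higher, Cd74 3.11-fold (3.06 to 3.16) and Ciita, the regulator of class II transcription, 5.44-fold (4.32 to 6.94). Of 15 cDC1 markers 11 were higher and 1, Ly75, was 4.46-fold (3.96 to 5.02) lower. Itgae was 55.4-fold (38.2 to 83.5) and Naaa 48.7-fold (39.2 to 61.5) higher, whereas Irf8 had a ratio of 1.02 (0.987 to 1.06) and Flt3 of 0.829 (0.738 to 0.932) and neither was called.

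Of 15 checkpoint and costimulatory genes 8 were lower in cDC1 than in mature DC, 2 higher and 5 not called, beside 7.7% higher and 7.49% lower over all genes. Cd274, which encodes PD-L1, was 4.05-fold (3.65 to 4.51) lower, Cd40 5.62-fold (4.88 to 6.48) and Pdcd1lg2 6.92-fold (5.6 to 8.63), and Havcr2 was 9.23-fold (7.51 to 11.5) higher. Of 16 cytokine genes 6 were lower, 2 higher and 8 not called, beside the same shares. Ccl22, a chemokine of mature dendritic cells, was 59.7-fold (52.2 to 68.5) lower, Ccl5 55.3-fold (51.7 to 59.2) and Il12b 12.8-fold (11.5 to 14.3), and Cxcl9 was 5.67-fold (5.09 to 6.34) higher. Cxcl9 stood at 1819.7 CPM in the 108 cDC1 with Clec9a and no Xcr1, which had 2389.5 of C1qa, and at 346 in those with both genes. Of 13 BCL2 family genes 2 were lower, the survival genes Bcl2a1b, 3.22-fold (3.11 to 3.33), and Bcl2a1d, 3.13-fold (3.0 to 3.27), near copies that may share reads, beside 7.49% lower over all genes.

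Proliferation genes were compared with Cd209a DC, against which 6.53% of all genes were higher. Of 15 G2/M genes 8 were higher and 0 lower, with a median log2 ratio of 2.34, and of 11 S phase genes 7 and 0, with a median of 2.23. Among them the G2/M gene Plk1 had 0 UMIs in Cd209a DC and passed the limit of 50 UMIs through cDC1 alone. The S phase gene Rrm2, rare in Cd209a DC, passed it largely through cDC1. Mki67, the Ki-67 gene, had 127 against 37.6 CPM, a ratio of 3.36 (2.35 to 4.97), and Top2a, a topoisomerase of dividing cells, 224 against 47.0 CPM, a ratio of 4.77 (3.47 to 6.72). Against mature DC 6 G2/M and 4 S phase genes were higher and 0 lower, beside 7.7% higher over all genes. When cells with 2 or more C1q UMIs were left out, a setting chosen after seeing the data, 2 libraries remained for the comparison with Cd209a DC. There 7 G2/M and 3 S phase genes were higher, counts that are not comparable with those over 6 libraries. Over all genes 304 were higher in that setting.

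By cell, 362 of 910 cDC1, 39.8% (36.6 to 43.0%), held 2 or more UMIs of G2/M genes. The share was 18.5% (6.30 to 38.1%) in library 4, the lowest, and 57.0% (45.3 to 68.1%) in library 2, the highest, and these intervals did not overlap. At 1000 UMIs per cell library 4 was again lowest, at 3.85% of 26 cDC1. Its share with 2 or more UMIs of S phase genes, 23.1%, was then the highest of the libraries. Pooled at that depth, the share with G2/M UMIs was 19.8% (17.3 to 22.6%) in cDC1 and 3.73% (1.72 to 6.97%) in Cd209a DC. It was 3.18% (2.03 to 4.74%) in mature DC and 2.14% (0.697 to 4.92%) in B cells. At that depth cDC1 lay above Cd209a DC in 6 of 6 libraries and above mature DC in 11 of 12. Macrophages lay nearer to cDC1 in summed levels without thinning. G2/M genes summed to 945 CPM in cDC1, 701 in macrophages and 250 in Cd209a DC. S phase genes summed to 521, 477 and 179 CPM.

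EZH2, the target of the inhibitor, is the enzyme of polycomb repressive complex 2 (PRC2), which also holds EED and SUZ12 and marks histone H3 at lysine 27. Ezh2 was found in 30.1% of cDC1, and at 1000 UMIs per cell in 5.65% (4.23 to 7.36%) of cDC1, 5.53% of mature DC, 4.15% of Cd209a DC and 4.27% (2.07 to 7.72%) of B cells, whose interval held the other 3 shares. It ranged from 17.9 to 109 CPM over the 12 libraries. Against Cd209a DC it had a ratio of 1.96 (1.38 to 2.84), above 1 in 6 of 6 libraries, and was not called. Of 11 PRC2 and demethylase genes the histone-binding subunit gene Rbbp7 was 3.53-fold (2.51 to 5.11) higher and the demethylase gene Kdm6b 2.41-fold (2.14 to 2.72) lower, so that 1 gene was called in each direction, near the share over all genes. The median log2 ratio of the list was 0.54. Within cDC1 the 362 cells with 2 or more G2/M UMIs, at a median depth of 6175.5 UMIs, were set beside the 408 cells with 0, at 3980. Ezh2 had 122 and 29.9 CPM, a ratio of 4.08 (3.13 to 5.39), and Suz12 100.1 and 36.2, a ratio of 2.76 (2.15 to 3.58), both above 1 in 12 of 12 libraries. Rbbp7 had a ratio of 1.94 (1.65 to 2.29) and Eed of 1.36 (1.02 to 1.84), above 1 in 10 and 8 libraries. Of the cDC1 markers outside the choice, Irf8 had a ratio of 1.11 (1.05 to 1.17) and Batf3 of 0.966 (0.835 to 1.12). Naaa was lower at 0.814 (0.77 to 0.861), in 11 of 12 libraries, and Itgae at 0.852 (0.778 to 0.934), in 9. Cd24a, at 0.869 (0.779 to 0.97), and Btla, at 0.792 (0.673 to 0.931), were lower in 8 and 7 libraries. For Flt3, Tlr3, Wdfy4, Cadm1, Snx22 and Ly75 the interval held 1. Cd274 was lower in the cells with G2/M UMIs in 12 of 12 libraries, at a ratio of 0.507 (0.411 to 0.625).

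**Figure D4:**
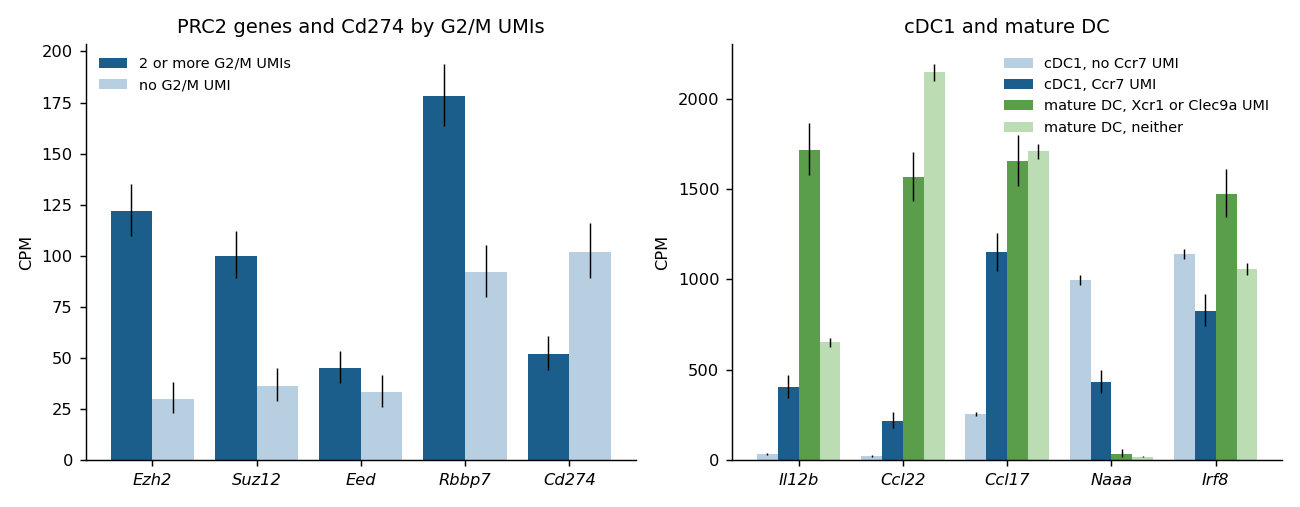
CPM with exact 95% Poisson intervals as error bars. Left, Ezh2, Suz12, Eed, Rbbp7 and Cd274 in cDC1 with 2 or more and with 0 G2/M UMIs, where Ezh2 stood at 122 and 29.9. Right, Il12b, Ccl22, Ccl17, Naaa and Irf8 in cDC1 with and without a Ccr7 UMI and in mature DC with and without an Xcr1 or Clec9a UMI.

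Of 4 tested CDK inhibitors known as polycomb targets 1 was higher and 1 lower, beside 6.53% higher and 4.89% lower over all genes. Cdkn1a, which encodes p21, ranged from 93.8 to 238 CPM in cDC1 and from 299.6 to 897 in Cd209a DC. It was 3.18-fold (2.83 to 3.56) lower. Cdkn2c, which encodes p18, was 4.14-fold (1.72 to 13) higher. Cdkn2c had a ratio of 6.43 without library 6 and was not called with a UMI of each of Xcr1 and Clec9a. It was not called either without cells with 2 or more C1q UMIs, a setting that left 2 libraries. In the BCL2 family Bcl2 was 2.84-fold (1.87 to 4.26) and Bcl2l11, which encodes the death-promoting BIM, 2.42-fold (1.94 to 3.01) lower. They were 2 of 10 tested, beside 4.89% lower over all genes. Without library 4 Bcl2l11 was 1.91-fold lower and not called. Of 14 interferon-stimulated genes Oasl2 was 3.39-fold (2.71 to 4.22) lower and no other was called, beside 4.89% lower and 6.53% higher over all genes. Without library 6, 2 were lower, and without library 4, 1 was higher. Each setting compared 5 libraries, and over all genes 350 were lower in the first and 575 higher in the second. Of 10 immediate early genes Jun, Ier2 and Dusp1 were lower, beside 4.89% lower over all genes. Without library 4 Dusp1 was 1.89-fold lower and not called. None of 7 heat shock genes was called.

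Some cDC1 held transcripts of maturation, a share that the limit on Fscn1 in the choice restricts. Ccr7 was found in 49 cells, 5.38% (4.01 to 7.06%), Il12b in 106, 11.6% (9.64 to 13.9%), and both in 17. At 1000 UMIs per cell Ccr7 was found in 2.66% of cDC1, 1.3% of plasmacytoid dendritic cells and 6.22% of Cd209a DC. At that depth Il12b was found in 3.43% of cDC1. Without thinning it was found in none of 288 B cells, which at 3 counts allows a share of up to 1.04% of cells with a UMI (exact upper limit 1.27%). Cells with Ccr7 had 401 CPM of Il12b and the other 861 had 33.5, a ratio of 12 (9.67 to 14.8). Ccl22 had a ratio of 9.72 (7.34 to 12.8), Ccl5 of 4.80 (4.10 to 5.6), Ccl17 of 4.54 (4.09 to 5.04) and Relb, a transcription factor of mature dendritic cells, of 4.80 (3.44 to 6.61). Of the cDC1 markers, Tlr3 had a ratio of 0.266 (0.171 to 0.394), Naaa of 0.432 (0.37 to 0.502), Irf8 of 0.725 (0.648 to 0.809), Batf3 of 0.772 (0.561 to 1.04) and Ly75 of 2.20 (1.6 to 2.97). In the 3 libraries with 5 or more such cells the first 5 genes, Tlr3 and Naaa lay on 1 side, while Irf8, Batf3 and Ly75 and the maturation genes Socs2, Cd40 and Cd274 did not. The genes named here were chosen after their values were seen. Library 12 had the highest levels of Ccr7 and Il12b, 315 CPM on 2 and 285 CPM on 3 of its 21 cDC1. The ratios thus lean on few cells, and their intervals do not cover differences between cells. Of the mature DC, 40 held an Xcr1 or Clec9a UMI, and these had 1717 CPM of Il12b against 651 in the other 696, a ratio of 2.64 (2.40 to 2.89), higher in both libraries with 5 or more of each.

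The members were not uniform. Both choosing genes were found in 572 cells, Xcr1 alone in 230 and Clec9a alone in 108. Cells with Clec9a alone had 594 CPM of Irf8, 120.3 of Itgae and 34.4 of Flt3, against 1222, 414 and 118 in cells with both, lower in 7 of 7 libraries with 5 or more of each. Mki67 was lower in 7 of 7 as well, at a ratio of 0.401 (0.277 to 0.565). Macrophage genes had the opposite order, with 2389.5 against 422 CPM of C1qa and a ratio of 5.30 (4.21 to 6.67) for Csf1r, the receptor for the macrophage growth factor. Cxcl9 went with them, at 1819.7 against 346 CPM, and all 3 were higher in 6 of 7 libraries. The part of cells or RNA of macrophages in these values was not tested.

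C1q genes were present in many members, with 2 or more UMIs in 488 (53.6%). At 1000 UMIs per cell 27% (24.1 to 30.0%) of cDC1 and 17.9% (13.3 to 23.5%) of B cells held a C1qa UMI. The share was 25.3% (18.7 to 33.0%) in plasmacytoid dendritic cells, 18.7% (15.9 to 21.7%) in mature DC and 14.9% (10.7 to 20.1%) in Cd209a DC. Library 10 held 145 of the 288 B cells and 20 cDC1, and library 6 held 10 and 394. B cells and cDC1 thus came largely from different libraries. The 9 macrophage markers outside the choice summed to 3897 CPM in cDC1, from 641 in library 3 to 8373 in library 6, to 4065 in B cells and to 37758 in macrophages. Against Cd209a DC none of 9 tested was higher and 2, Fcgr1 and Mrc1, were lower, beside 6.53% higher and 4.89% lower over all genes. Mrc1 was 3.99-fold lower, or 6.48-fold without library 6.

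Levels of marker genes differed between libraries to unequal degrees. Irf8 ran from 858 to 1392 CPM over the 12 libraries, Naaa from 771 to 1348 and Tlr3 from 146 to 327. Batf3 ran from 97.3 to 327, Flt3 from 47.7 to 166, Cadm1 from 51.3 to 238 and Snx22 from 22.0 to 106. Il12b ran from 0 to 285, highest in library 12, where 3 cDC1 held it. Apoe, a lipid carrier of macrophages, ran from 298 to 4926, highest in library 6. The heat shock gene Hspa1a ran from 0 to 2105, highest in library 4, with a median of 52.7.

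**Figure D5:**
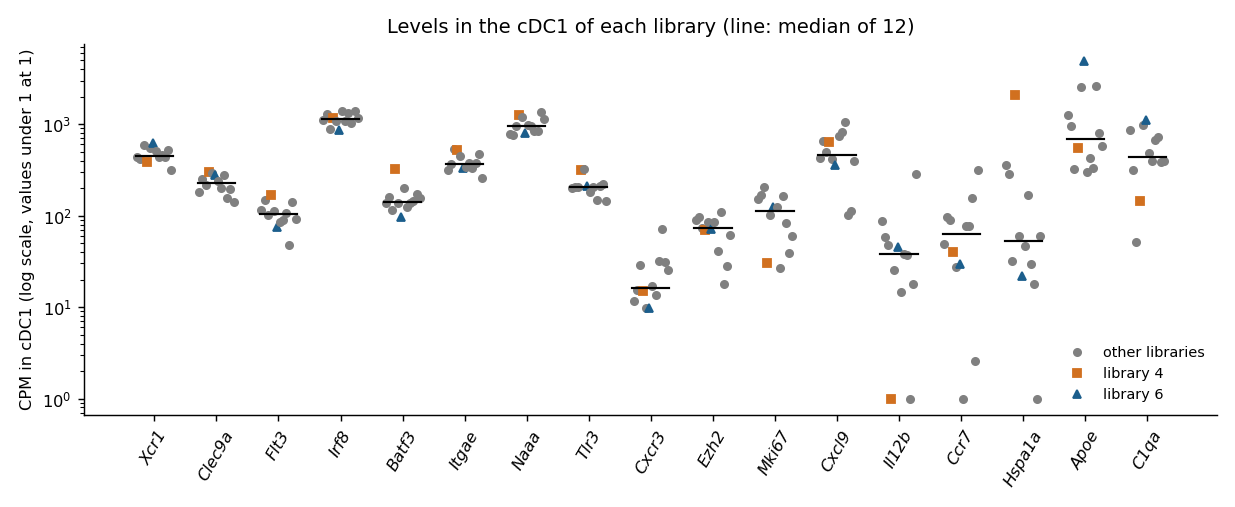
CPM of 17 genes in the cDC1 of each library, 1 point per library, with the median of 12 as a line and values under 1 drawn at 1. Library 4 is drawn as orange squares and library 6 as blue triangles. Hspa1a reached 2105 CPM in library 4, and Irf8 stayed between 858 and 1392.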

How the data were processed

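CD45+ cells enriched from MC38 tumors of 12 samples were profiled with 10x 3′ chemistry. The authors deposited 1 pooled matrix of UMI counts per gene and barcode, not normalized, with no cell annotation. The submitters' processing notes name Cell Ranger 2.1.1, Seurat and mm10, and the matrix header names Cell Ranger 3.0.2. Library numbers were read from the barcode suffix, and no label ties a number to a treatment group, so no test was made. No doublet caller was run, and doublets can pass the limits used.

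Barcodes with a gene number above 200 and below 5000 were kept if mitochondrial transcripts did not exceed 10% of their UMIs. Counts of each population were summed and divided by its total UMIs (CPM). Comparison cells were Cd209a DC (2 or more Cd209a UMIs), mature DC (2 or more Fscn1 UMIs and a Ccr7 UMI), plasmacytoid dendritic cells, macrophages and B cells. Genes with 50 or more UMIs in both populations together were compared, and a population at 0 was set to 3 UMIs. Shares have Clopper-Pearson, levels exact Poisson and ratios exact conditional intervals at 95%. The text names genes of 29 lists and the 12 genes with the highest and the 12 with the lowest ratio against Cd209a DC. The count over the receptor list is not reported here. Members and lists were chosen with earlier results of these data known. Gene positions are from GENCODE M21 (GRCm38). Counts were handled with pandas 2.3.3 and numpy 2.4.6 in Python 3.11.15, intervals computed with scipy 1.17.1 and plots drawn with matplotlib 3.10.9.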

Additional observations from a re-analysis of the deposited data

How the results depend on the processing

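The share of cDC1 among kept cells, 0.706%, was 0.463% with at least 3 UMIs of Xcr1 and Clec9a, 0.444% with a UMI of each gene and 0.832% with a mitochondrial limit of 5%. Without the 10% of members with the most UMIs it was 0.635%. That setting left all other kept cells in, so the drop was fixed in advance. Over the libraries left out in turn it ran from 0.564% without library 6 to 0.751% without library 4. The 465 genes higher than in Cd209a DC became 203 with at least 200 UMIs and 135 with cells thinned to 1000 UMIs, and ran from 449 to 575 with 1 library left out, the latter without library 4. The 348 lower genes became 187 and 127, and ran from 327 to 386. The share with G2/M UMIs, 39.8%, was 45.6% with at least 3 UMIs and 19.8% after thinning, and ran from 38.1 to 41.9% over libraries left out. The share with a Flt3 UMI, 41.8%, was 51.6% with at least 3 UMIs, 49.3% with a UMI of each gene, 37.6% without the deepest cells and 11.3% after thinning, and ran from 38.6 to 56.6%. The following 2 settings were chosen after seeing the data. Without the members that held Clec9a and no Xcr1 the share of cDC1 was 0.622% and that with Flt3 45.4%. Without cDC1 and Cd209a DC that held 2 or more C1q UMIs, 422 members and 2 compared libraries were left. These members were 0.327% of all kept cells, from which no other cells with C1q UMIs were taken out. The higher genes were 304, the lower 238 and the share with G2/M UMIs 36.0%. In that setting 13 cDC1 markers, 7 G2/M and 3 S phase genes were higher, and 1 transcription factor was higher and 1 lower. The same side in 2 libraries is a weaker demand than in 6, and the genes tested in that setting are not counted here. These counts are therefore not comparable with the main ones, also where they are given above. The causes of these changes were not tested. No library held at least 50 cells of both cDC1 and Cd209a DC, so that setting was not run. Populations were set side by side within each library, by direction only and without a test. Treatments were not compared because no label ties a library number to a sample.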
